A study of Homo sapiens with 16 samples.

Results

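E proteins, the ID proteins that hold them inactive, and the TAL1, LYL1 and LMO factors form the core of the transcription factor network that is deregulated in many T-lineage acute lymphoblastic leukemias (T-ALL). Their mRNAs were followed in RNA-seq read counts from Jurkat and HSB-2, 2 established T-ALL cell lines of the genotype TAL1+. The members were chosen by gene symbol, and all 10 were found once each among the 57820 genes counted: the E-protein genes TCF3, TCF12 and TCF4, the inhibitor genes ID1, ID2 and ID3, the bHLH genes TAL1 and LYL1, and the cofactor genes LMO1 and LMO2. The 16 libraries form 8 groups of 2, 4 in each line: wild-type cells without a construct, a scrambled shRNA control, and the hairpins USP7 shRNA-4057 and USP7 shRNA-4058. USP7 encodes a deubiquitylating enzyme, and the study lowered it to ask what its loss does to E-protein activity. Each line has its own genetic history, and the labels do not state whether the 2 libraries of a group came from separate cultures or transductions. The p-values therefore measure the spread between these libraries, which may be technical.

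E proteins are basic helix-loop-helix (bHLH) factors that bind DNA as dimers at E-box sequences and drive the gene program of developing thymocytes. ID proteins have the helix-loop-helix but no DNA-binding region, so a dimer of an E protein with an ID protein does not bind DNA. TAL1 and LYL1 also pair with E proteins, and with LMO1 or LMO2, LDB1 and GATA or RUNX factors they form complexes that bind DNA and often hold E-protein targets down. In normal thymocytes TAL1 and LMO genes are silenced as the cells mature, and their activation is a common event in T-ALL. The balance of E proteins with their antagonists is therefore read here at the level of mRNA, which says nothing of protein amounts or of dimers.

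Library totals ranged from 76.6 to 235 M counts, and a level of 3 counts, the most that a count of 0 allows, corresponded to 0.0132 to 0.0444 CPM (counts per 1e6 of the library total after TMM scaling). Such floors cover counting error only. The targeted gene, USP7, was measured at 384 and 387 CPM in Jurkat scrambled libraries, at 140.0 and 145 CPM under shRNA-4057 and at 244 and 242 CPM under shRNA-4058. The HSB-2 values were 227 and 220.1 CPM for scrambled, 144 and 149 CPM for shRNA-4057, then 162 and 156 CPM for shRNA-4058. Every shRNA library thus held less USP7 mRNA than the scrambled libraries of its line, with the lowest share in Jurkat shRNA-4057 cells. All 10 T-lineage markers examined were over 1 CPM in both lines (summed level 2530 to 3295 CPM in Jurkat and 2981 to 4136 CPM in HSB-2), and none of 5 myeloid markers was. The T-lineage markers were not stable across groups. With both hairpins against both controls, CD3D, CD3E, CD2, LCK and ZAP70 were called lower in Jurkat and none higher. In HSB-2, CD3D, CD3E, CD7, CD5 and LCK were called higher by that rule and PTPRC lower. The share of all genes that met the rule was not counted. Of 5 erythroid and megakaryocyte markers only the megakaryocyte gene ITGA2B was over 1 CPM (summed level 2.01 to 4.41 CPM in Jurkat and 1.33 to 3.27 CPM in HSB-2), and HBB was at 0 counts throughout. ITGA2B was at 3.46 CPM in both Jurkat control groups and was called lower with both hairpins against both, at 1.95 CPM under shRNA-4057 and 1.61 CPM under shRNA-4058. Of 5 epithelial and stromal markers only the collagen gene COL1A1 was over 1 CPM, and in Jurkat its level was 7.92 CPM in wild-type against 5.69 CPM in scrambled, 11.2 CPM under shRNA-4057 and 9.05 CPM under shRNA-4058. Of 5 B-lineage markers only CD79A was over 1 CPM in Jurkat. Its level there followed the groups, at 62.7 CPM in scrambled against 35.5 CPM in wild-type and 21.5 and 22.4 CPM in shRNA-4057 and shRNA-4058 cells. The part of these genes in the results was not tested.

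Among the E-protein genes TCF12 and TCF4 were called against scrambled cells, and TCF3 had no call or direction that held across settings. TCF3, which encodes E2A, lies on chromosome 19 (1609290-1652614, minus strand, GRCh37). Its level was 309 and 329 CPM in Jurkat wild-type libraries, 349 and 358 CPM in scrambled, 351 and 321 CPM with shRNA-4057 and 327 and 358 CPM with shRNA-4058. Its HSB-2 level was 274 and 275 CPM in wild-type, 249.7 and 261 CPM in scrambled, 278 and 261 CPM with shRNA-4057 and 262 and 278 CPM with shRNA-4058. The shRNA libraries overlapped the scrambled libraries in Jurkat, and in HSB-2 they overlapped with shRNA-4057. TCF3 was called with neither hairpin in either line, where called means an adjusted p under 0.05 by edgeR's quasi-likelihood test with Benjamini-Hochberg adjustment over all genes tested. The log2 differences against scrambled were -0.07 (SE 0.05) and -0.05 (SE 0.05) in Jurkat and 0.08 (SE 0.05) and 0.08 (SE 0.05) in HSB-2, for shRNA-4057 and shRNA-4058. The exons of TCF3 are 62.5% G and C, and an offset for GC content and length turned 3 of these 4 differences around, to 0.17 with shRNA-4058 in Jurkat and to -0.08 and -0.29 with shRNA-4057 and shRNA-4058 in HSB-2. All 3 were called under the offset (edgeR adjusted p 1.2e-05, 0.020 and 6.0e-10). The HSB-2 shRNA-4058 difference was called higher, at 0.14, with RLE size factors (edgeR adjusted p 0.016) and by DESeq2 (adjusted p 0.017), and the Jurkat shRNA-4057 difference was called lower without shRNA-4057 replicate 1 (-0.14, edgeR adjusted p 0.035). No direction is given for TCF3 for that reason. In RNA from whole cultures, as here, fewer cells with a transcript and less of it per cell cannot be told apart.

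TCF12, which encodes HEB (chromosome 15, 57210821-57591479, plus strand), moved in opposite directions in the 2 lines. Its Jurkat levels were 363 and 351 CPM in wild-type, 333 and 336 CPM in scrambled, 292 and 289 CPM with shRNA-4057 and 315 and 313 CPM with shRNA-4058. Both hairpins thus left TCF12 below every control library of Jurkat. In HSB-2 the levels were 117 and 118 CPM in wild-type, 112 and 111 CPM in scrambled, 134 and 135 CPM with shRNA-4057 and 123 and 122 CPM with shRNA-4058, above every control library. Against scrambled cells it fell with each hairpin in Jurkat (log2 differences -0.20, SE 0.03, edgeR adjusted p 8.4e-06, and -0.09, SE 0.03, adjusted p 0.019) and rose with each in HSB-2 (0.27, SE 0.03, adjusted p 1.8e-07, and 0.14, SE 0.03, adjusted p 9.8e-04). The levels were 86.9% and 93.8% of scrambled in Jurkat and 121% and 109.8% in HSB-2, and no shRNA library overlapped the scrambled libraries. The Jurkat shRNA-4058 fall was not called without scrambled replicate 2 (-0.04, edgeR adjusted p 0.44) or shRNA-4058 replicate 2 (-0.09, adjusted p 0.078). Against wild-type cells the fall was called with both Jurkat hairpins, while in HSB-2 the rise was called with shRNA-4057 (0.20, edgeR adjusted p 3.1e-05) and was not with shRNA-4058 (0.06, edgeR adjusted p 0.13).

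TCF4, which encodes E2-2 (chromosome 18, 52889416-53332018, minus strand), was a Jurkat gene. It stood at 11.2 and 10.6 CPM in Jurkat wild-type, 8.95 and 8.96 CPM in scrambled, 6.42 and 7.01 CPM with shRNA-4057 and 9.28 and 8.49 CPM with shRNA-4058. The shRNA-4057 libraries were the lowest, and the shRNA-4058 libraries lay on both sides of scrambled. TCF4 fell with shRNA-4057 (log2 difference -0.42, SE 0.10, edgeR adjusted p 0.0018), and with shRNA-4058 the difference was -0.01 (SE 0.10). Against wild-type cells it was called lower with both (-0.70, edgeR adjusted p 1.0e-05, and -0.30, adjusted p 0.021). In HSB-2, 7 of 8 libraries had 0 counts and scrambled replicate 2 had 1 count.

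**Figure D1:**
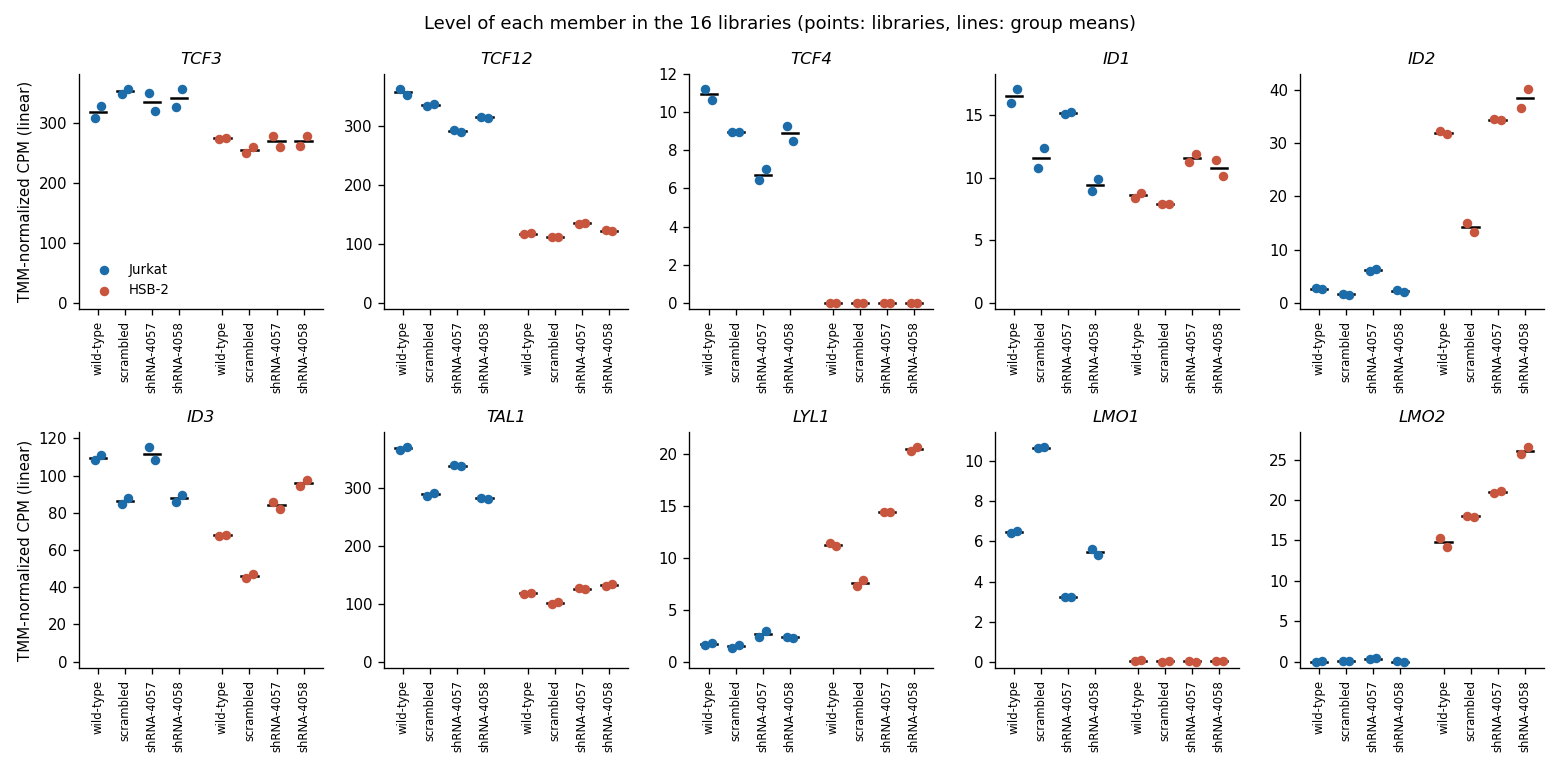
Level of each member as TMM-normalized CPM on a linear axis, by group; points are single libraries (2 a group) and lines are group means, with Jurkat in blue and HSB-2 in red. ID2, ID3, TAL1 and LYL1 are lower in HSB-2 scrambled than in HSB-2 wild-type libraries and higher with both hairpins, and TCF4 and LMO1 are near 0 in HSB-2 as LMO2 is in Jurkat.

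All 3 ID genes rose with both hairpins in HSB-2 against scrambled cells, while in Jurkat they differed between the hairpins. ID3 (chromosome 1, 23884417-23885992, minus strand) was the most abundant of them per exon length in both lines, at 73.3 ± 1.096 RPKM (reads per kilobase of exon and per 1e6 counts, SD, n = 2) in Jurkat wild-type and 45.4 ± 0.260 RPKM in HSB-2 wild-type. Its Jurkat levels were 109 and 111 CPM in wild-type, 84.5 and 87.99 CPM in scrambled, 115 and 108 CPM with shRNA-4057 and 85.7 and 89.8 CPM with shRNA-4058. The shRNA-4057 libraries were at the wild-type level and the shRNA-4058 libraries at the scrambled level. ID3 rose with shRNA-4057 against scrambled (log2 difference 0.37, SE 0.04, edgeR adjusted p 1.2e-07), and with shRNA-4058 the difference was 0.02 (SE 0.04). Against wild-type cells the differences were 0.03 (edgeR adjusted p 0.69) and -0.32 (adjusted p 2.0e-06). In HSB-2 the levels were 67.6 and 68.1 CPM in wild-type, 44.9 and 46.9 CPM in scrambled, 85.9 and 82.1 CPM with shRNA-4057 and 94.4 and 97.5 CPM with shRNA-4058. Every shRNA library lay above every control library. The rise was 0.87 (SE 0.04, edgeR adjusted p 6.5e-14) and 1.06 (SE 0.04, adjusted p 1.1e-15) against scrambled and 0.31 and 0.50 against wild-type (adjusted p 5.1e-06 and 1.7e-09).

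ID2 (chromosome 2, 8818975-8824591, plus strand), a regulator of innate lymphoid and T-cell fate, rose more than ID1 and ID3 against scrambled cells in each hairpin comparison, though not against HSB-2 wild-type cells. In Jurkat it was at 2.80 and 2.60 CPM in wild-type, 1.75 and 1.58 CPM in scrambled, 5.98 and 6.27 CPM with shRNA-4057 and 2.46 and 2.07 CPM with shRNA-4058. It rose 3.69-fold with shRNA-4057 (log2 difference 1.88, SE 0.10, edgeR adjusted p 3.9e-13) and 1.37-fold with shRNA-4058 (0.45, SE 0.12, adjusted p 0.0031) against scrambled, the second of which was not called without shRNA-4058 replicate 1 (0.31, adjusted p 0.083). Against wild-type cells the shRNA-4057 rise was called (1.18, edgeR adjusted p 7.2e-10), and the shRNA-4058 difference was -0.25 (adjusted p 0.067). HSB-2 cells held ID2 at 32.2 and 31.7 CPM in wild-type, 15.0 and 13.4 CPM in scrambled, 34.4 and 34.3 CPM with shRNA-4057 and 36.6 and 40.2 CPM with shRNA-4058. The scrambled libraries stood apart from the other 6. The HSB-2 rise of 2.42-fold and 2.70-fold against scrambled (log2 differences 1.28, edgeR adjusted p 2.5e-13, and 1.43, adjusted p 1.9e-14) became 0.10 (adjusted p 0.28) and 0.26 (adjusted p 0.0026) against wild-type. ID2 shares 145 exonic bases with the antisense gene ID2-AS1, counted at 17 to 195 reads per library, and the strand setting of the counts was not given in the sources used here.

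ID1 (chromosome 20, 30193086-30194318, plus strand) moved in opposite directions with the 2 hairpins in Jurkat. Its levels there were 15.9 and 17.1 CPM in wild-type, 10.8 and 12.3 CPM in scrambled, 15.1 and 15.3 CPM with shRNA-4057 and 8.93 and 9.88 CPM with shRNA-4058. It rose with shRNA-4057 (log2 difference 0.39, SE 0.08, edgeR adjusted p 2.0e-04) and fell with shRNA-4058 (-0.30, SE 0.08, adjusted p 0.0039) against scrambled, and the hairpins differed by 0.69 (SE 0.08, adjusted p 2.0e-07). The fall was not called without scrambled replicate 2 (-0.15, edgeR adjusted p 0.24) or shRNA-4058 replicate 1 (-0.23, adjusted p 0.071). Against wild-type cells the shRNA-4057 difference was -0.12 (edgeR adjusted p 0.24) and the shRNA-4058 fall was -0.81 (adjusted p 1.6e-08). HSB-2 cells held ID1 at 8.37 and 8.79 CPM in wild-type, at 7.89 CPM in both scrambled libraries, at 11.3 and 11.9 CPM with shRNA-4057 and at 11.4 and 10.1 CPM with shRNA-4058. All 4 shRNA libraries lay above the 4 control libraries, and the rise was called with both hairpins against scrambled (0.55 and 0.46, edgeR adjusted p 3.7e-06 and 3.0e-05) and against wild-type (0.43 and 0.34, adjusted p 1.5e-04 and 0.0011).

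TAL1 (chromosome 1, 47681962-47697897, minus strand) was strongly expressed in both lines. In Jurkat it was at 367 and 371 CPM in wild-type, 287 and 293 CPM in scrambled, 340.1 and 338 CPM with shRNA-4057 and 283 and 282 CPM with shRNA-4058. The shRNA-4057 libraries lay between the controls, so TAL1 was called higher than in scrambled cells (log2 difference 0.23, SE 0.03, edgeR adjusted p 3.3e-06) and lower than in wild-type cells (-0.12, SE 0.03, adjusted p 0.0050). With shRNA-4058 it differed from scrambled by -0.04 (SE 0.03, edgeR adjusted p 0.35), and under an offset for GC content and length by 0.09 (adjusted p 0.015). Against wild-type cells TAL1 fell with shRNA-4058 (-0.39, SE 0.03, edgeR adjusted p 1.9e-09). In HSB-2 it was at 117 and 119.6 CPM in wild-type, 99.8 and 104 CPM in scrambled, 128 and 125 CPM with shRNA-4057 and 130.3 and 134 CPM with shRNA-4058. It rose with both hairpins against scrambled (0.31 and 0.38, edgeR adjusted p 4.1e-08 and 1.2e-09) and by less against wild-type (0.10 and 0.16, adjusted p 0.030 and 3.5e-04). With the offset the differences against scrambled were 0.15 and 0.12. TAL1 shares 845 exonic bases with an antisense lncRNA counted at 6 to 217 reads per library.

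LYL1 (chromosome 19, 13209847-13213975, minus strand), the close relative of TAL1, was the member that rose with both hairpins against both controls in both lines. In Jurkat, where it was scarce, it stood at 1.62 and 1.81 CPM in wild-type, 1.30 and 1.65 CPM in scrambled, 2.39 and 2.9997 CPM with shRNA-4057 and 2.34 and 2.32 CPM with shRNA-4058. All 4 shRNA libraries lay above the 4 control libraries. The log2 differences were 0.86 (SE 0.13, edgeR adjusted p 4.7e-06) and 0.66 (SE 0.13, adjusted p 1.7e-04) against scrambled and 0.66 (adjusted p 1.5e-04) and 0.45 (adjusted p 0.0055) against wild-type. HSB-2 cells held LYL1 at 11.4 and 11.1 CPM in wild-type, 7.32 and 7.84 CPM in scrambled, 14.4 CPM in both shRNA-4057 libraries and 20.3 and 20.6 CPM with shRNA-4058. It rose 1.90-fold and 2.69-fold against scrambled (log2 differences 0.93 and 1.43, edgeR adjusted p 3.7e-09 and 8.5e-13) and by 0.35 and 0.86 on the log2 scale against wild-type (adjusted p 0.0022 and 1.1e-08). In HSB-2 the shRNA-4057 level was below the shRNA-4058 level (log2 difference -0.50, SE 0.08, edgeR adjusted p 8.1e-05).

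ID2, ID3, TAL1 and LYL1 were the members called lower in HSB-2 scrambled than in wild-type cells and higher with both hairpins than in scrambled cells. Both comparisons share the scrambled libraries, so a low scrambled level alone can give this pattern. The 250 bases before the start sites of these members (RefSeq, GRCh38.p14, a later build than the GRCh37 gene positions above) are shown. They run 5′ to 3′ on the gene's strand, with matches to the general E-box CANNTG in capitals. ID2 is at chr2:8681806-8682055 (plus strand), ID3 at chr1:23559502-23559751, TAL1 at chr1:47232336-47232585 and LYL1 at chr19:13102859-13103108 (minus strand).
ID2: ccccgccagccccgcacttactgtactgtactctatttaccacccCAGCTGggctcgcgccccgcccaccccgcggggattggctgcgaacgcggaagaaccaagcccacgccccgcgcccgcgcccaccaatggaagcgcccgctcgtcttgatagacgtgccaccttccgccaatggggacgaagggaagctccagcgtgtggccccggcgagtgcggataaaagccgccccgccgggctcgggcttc
ID3: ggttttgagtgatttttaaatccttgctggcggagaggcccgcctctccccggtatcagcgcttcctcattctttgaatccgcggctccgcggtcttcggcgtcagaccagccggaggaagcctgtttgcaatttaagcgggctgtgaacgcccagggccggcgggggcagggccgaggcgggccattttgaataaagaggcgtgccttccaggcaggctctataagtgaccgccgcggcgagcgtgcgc
TAL1: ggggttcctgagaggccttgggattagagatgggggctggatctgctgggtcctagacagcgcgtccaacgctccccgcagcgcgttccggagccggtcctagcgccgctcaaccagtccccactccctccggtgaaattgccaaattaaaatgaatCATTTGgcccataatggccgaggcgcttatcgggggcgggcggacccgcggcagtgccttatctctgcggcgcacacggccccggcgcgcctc
LYL1: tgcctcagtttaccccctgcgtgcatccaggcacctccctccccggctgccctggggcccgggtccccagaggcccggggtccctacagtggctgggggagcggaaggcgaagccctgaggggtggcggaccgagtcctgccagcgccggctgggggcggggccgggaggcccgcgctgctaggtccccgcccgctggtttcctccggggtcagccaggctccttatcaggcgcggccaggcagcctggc
CANNTG was searched on both strands and occurred 1 time in ID2, as CAGCTG, 1 time in TAL1, as CATTTG, and in neither ID3 nor LYL1, so 2 of the 4 held it. Of 35116 promoters of the same length, 61.8% held CANNTG and 14.0% held CAGCTG, which is among the CANNTG matches. CAGATG (12.2% of promoters) and CAGGTG (17.5%), also forms of CANNTG, occurred in none of the 4. GATAA, the core of GATA-factor sites, occurred 2 times in TAL1, 1 time each in ID2 and LYL1 and not in ID3, and 20.4% of promoters held it on either strand.

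The LMO genes were expressed in opposite lines. LMO1 (chromosome 11, 8245856-8290263, minus strand) was at 6.44 and 6.54 CPM in Jurkat wild-type, at 10.7 CPM in both scrambled libraries, at 3.24 CPM in both shRNA-4057 libraries and at 5.60 and 5.31 CPM with shRNA-4058. The 4 shRNA libraries lay below the 4 control libraries. LMO1 fell to 30.4% and 51.1% of the scrambled level (log2 differences -1.72, SE 0.13, edgeR adjusted p 1.0e-10, and -0.97, SE 0.12, adjusted p 7.0e-07). Against wild-type cells it fell with shRNA-4057 (-1.001, edgeR adjusted p 1.7e-06), and the shRNA-4058 difference was -0.25 (adjusted p 0.13). In HSB-2 it had 0 to 7 counts per library.

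LMO2 (chromosome 11, 33880122-33913623, minus strand) was at 15.3 and 14.2 CPM in HSB-2 wild-type, 18.1 and 17.9 CPM in scrambled, 20.9 and 21.1 CPM with shRNA-4057 and 25.7 and 26.5 CPM with shRNA-4058. The 4 groups did not overlap. It rose with both hairpins against scrambled (log2 differences 0.23 and 0.54, edgeR adjusted p 0.016 and 1.2e-06), and unlike ID2, ID3, TAL1 and LYL1 it was already higher in scrambled than in wild-type cells (0.28, SE 0.07, adjusted p 0.0050). That difference between the controls was not called without wild-type replicate 2 (0.23). Against wild-type cells the rise was 0.50 and 0.81 (edgeR adjusted p 1.2e-05 and 4.3e-09). The shRNA-4057 call was lost with an offset for GC content and length (0.07, edgeR adjusted p 0.44) and when any of its 4 libraries was left out (0.22 to 0.23, adjusted p 0.062 to 0.082). In Jurkat the counts were 0 and 3 in wild-type, 6 and 6 in scrambled, 40 and 45 with shRNA-4057 and 4 and 2 with shRNA-4058. LMO2 was called higher in Jurkat with shRNA-4057 alone (2.59, SE 0.36, edgeR adjusted p 1.8e-06), from a level under 0.1 CPM to 0.394 CPM, and the hairpins differed (3.95, SE 0.41, adjusted p 4.7e-08).

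**Figure D2:**
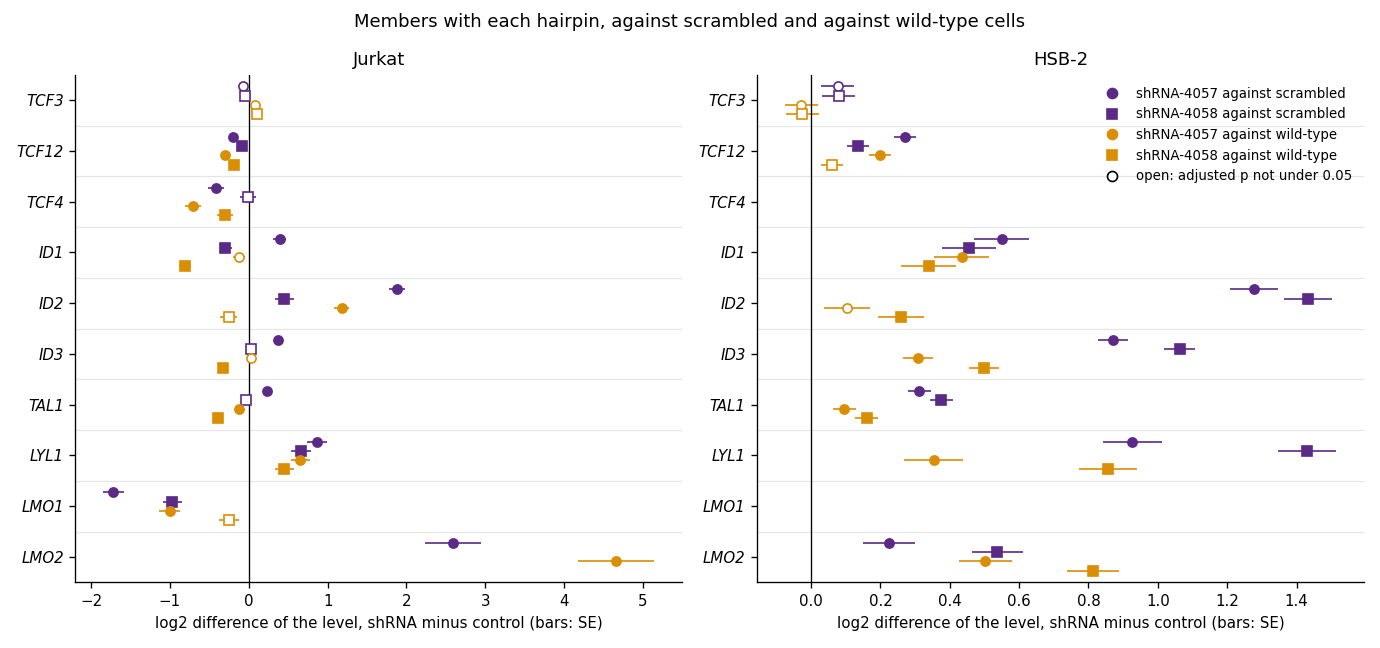
Log2 difference of each member's level with shRNA-4057 (circles) and shRNA-4058 (squares), against scrambled (purple) and wild-type cells (orange), in Jurkat (left) and HSB-2 (right), which have separate axes; bars are SE, and open symbols have an adjusted p not under 0.05. Values are left out where no library of either group reached 10 counts. LYL1 is right of 0 in all 8 comparisons, and ID2 in HSB-2 falls from 1.28 and 1.43 against scrambled to 0.10 and 0.26 against wild-type.

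With both hairpins pooled as 4 libraries against 2 scrambled libraries, so that the difference between hairpins is part of the error, the lines gave different counts. The 4 are 2 libraries of each hairpin but were taken as separate units, so these p-values may be too small. In Jurkat 2 of 10 members were called, beside 28.0% of all 21288 genes tested: LYL1 rose (log2 difference 0.79, SE 0.18, edgeR adjusted p 0.017) and LMO1 fell (-1.27, SE 0.24, adjusted p 0.0082). Neither was called against wild-type cells (edgeR adjusted p 0.071 and 0.21; 8.41% of all genes were called there) or when either scrambled library was left out. In HSB-2, 7 of the 8 members with at least 10 counts in a library were called, all higher (20.3% of all 21113 genes were called higher, and 38.1% in either direction). The log2 differences were 0.21 for TCF12, 0.50 for ID1, 1.36 for ID2, 0.97 for ID3, 0.35 for TAL1, 1.205 for LYL1 and 0.39 for LMO2 (edgeR adjusted p from 7.4e-06 to 0.028), and TCF3 was at 0.08 (adjusted p 0.26). TCF12 and LMO2 were not called when either scrambled library was left out (edgeR adjusted p 0.11 to 0.15), nor TCF12 without shRNA-4057 replicate 1 (0.057), and with an offset for GC content and length TAL1 (0.12, adjusted p 0.057) and LMO2 (0.13, adjusted p 0.19) were not called. The median over the 8 was 0.45, against -0.02 over all genes. Against wild-type cells 4 of the 8 were called higher, ID1, ID3, LYL1 and LMO2, beside 13.3% of all genes higher and 25.1% called in either direction.

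By single hairpin, with the spread between libraries alone as the error and members with at least 10 counts in a library counted as measurable, the Jurkat counts were 6 members higher and 3 lower with shRNA-4057 (22.7% and 27.3% of all 23063 genes, 50.0% together) and 2 higher and 3 lower of 9 measurable with shRNA-4058 (19.7% and 26.7%, 46.5% together). The 6 that rose with shRNA-4057 were the 3 ID genes, TAL1, LYL1 and LMO2, and the 3 that fell were TCF12, TCF4 and LMO1. In Jurkat only the shRNA-4057 libraries reached 10 counts for LMO2 (40 and 45). It thus entered this count, and the one between the Jurkat hairpins below, only through the group where it was high. With shRNA-4058, ID2 and LYL1 rose, and TCF12, ID1 and LMO1 fell. In HSB-2 the same 7 members as in the pooled comparison were higher with each hairpin (21.9% and 26.6% of all genes called higher, 43.6% and 52.8% called in either direction). Between the hairpins, shRNA-4057 cells had 5 members higher and 3 lower than shRNA-4058 cells in Jurkat (17.7% and 16.2% of all genes, 33.9% together) and 1 higher and 3 lower in HSB-2 (10.5% and 14.3%, 24.8% together). Of the genes called between the HSB-2 hairpins 42.3% were higher with shRNA-4057, and 57.0% under an offset for GC content and length.

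Much of the movement against scrambled cells had a counterpart between the controls. In Jurkat, 6 of 9 measurable members were lower in scrambled than in wild-type cells, where 11.0% of all genes were: TCF12 (-0.09), TCF4 (-0.29), ID1 (-0.51), ID2 (-0.70), ID3 (-0.35) and TAL1 (-0.35), with edgeR adjusted p from 2.4e-08 to 0.037. TCF3 (0.15, edgeR adjusted p 0.024) and LMO1 (0.72, adjusted p 1.1e-04) were higher, beside 14.8% of all genes, and 25.9% were called in either direction. In HSB-2, 4 of 8 were lower, beside 17.9% of all genes: ID2 (-1.17), ID3 (-0.56), TAL1 (-0.22) and LYL1 (-0.57), with edgeR adjusted p from 2.4e-12 to 1.6e-05. LMO2 was higher there, beside 16.1% of all genes, and 34.1% were called in either direction. The share of called genes that were higher in scrambled HSB-2 cells was 47.4%, and 59.1% under the offset. In Jurkat TCF12 (-0.02) and TCF4 (-0.17) were not called under the offset (edgeR adjusted p 0.69 and 0.20). With every gene that had a count kept, they were not called either (-0.10 and -0.29, edgeR adjusted p 0.077 and 0.066). The TCF4 call was lost when any of its libraries was left out (-0.33 to -0.25). TCF12 lost its call without wild-type replicate 1 (-0.07) or either scrambled library (-0.09 and -0.11). TCF3 lost it without wild-type replicate 1 (0.10) or scrambled replicate 2 (0.12). The LMO2 call in HSB-2 was lost without wild-type replicate 2 (0.23). Against wild-type cells in place of scrambled, Jurkat had 7 of 10 members called with shRNA-4057 (36.7% of all genes) and 6 of 9 with shRNA-4058 (35.9%), and HSB-2 had 6 of 8 with each hairpin (31.7% and 44.0%). The 7 include LMO2, which reached the minimum count in Jurkat only in the shRNA-4057 libraries. Set against both controls, the members called in the same direction with both hairpins were TCF12 (lower) and LYL1 (higher) in Jurkat and ID1, ID3, TAL1, LYL1 and LMO2 (all higher) in HSB-2. The hairpin comparisons of a line share their control libraries. The share of all genes that met this rule was not counted, so these numbers of members have no background to be set against.

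The balance was measured as the log2 ratio of the summed RPKM of TCF3, TCF12 and TCF4 to that of ID1, ID2, ID3, TAL1 and LYL1, a description of the chosen members with no test. In Jurkat it was -0.80 ± 0.0016 in wild-type (SD, n = 2), -0.38 ± 0.020 in scrambled, -0.84 ± 0.031 with shRNA-4057 and -0.43 ± 0.027 with shRNA-4058. In HSB-2 it was -0.71 ± 0.0029 in wild-type, -0.30 ± 0.0087 in scrambled, -0.93 ± 0.023 with shRNA-4057 and -1.12 ± 0.015 with shRNA-4058. By RPKM the antagonist sum was thus the larger in every library, and the scrambled libraries had the ratio closest to even in both lines. Both statements rest on the division by exon length. In CPM, without that division, the E-protein sum was the larger in every group, and scrambled was furthest from even. Jurkat shRNA-4058 libraries were near scrambled, Jurkat shRNA-4057 libraries were just below wild-type, and both HSB-2 hairpins were below both controls by more than the spread between libraries. Averaged over the hairpins, the balance changed by -0.25 in Jurkat and -0.73 in HSB-2 against scrambled. The replicate SD was 0.026 and 0.017, which covers libraries of a group and not the difference between hairpins. The Jurkat average came mostly from shRNA-4057, and the Jurkat hairpins lay on opposite sides of wild-type (-0.84 and -0.43 against -0.80).

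**Figure D3:**
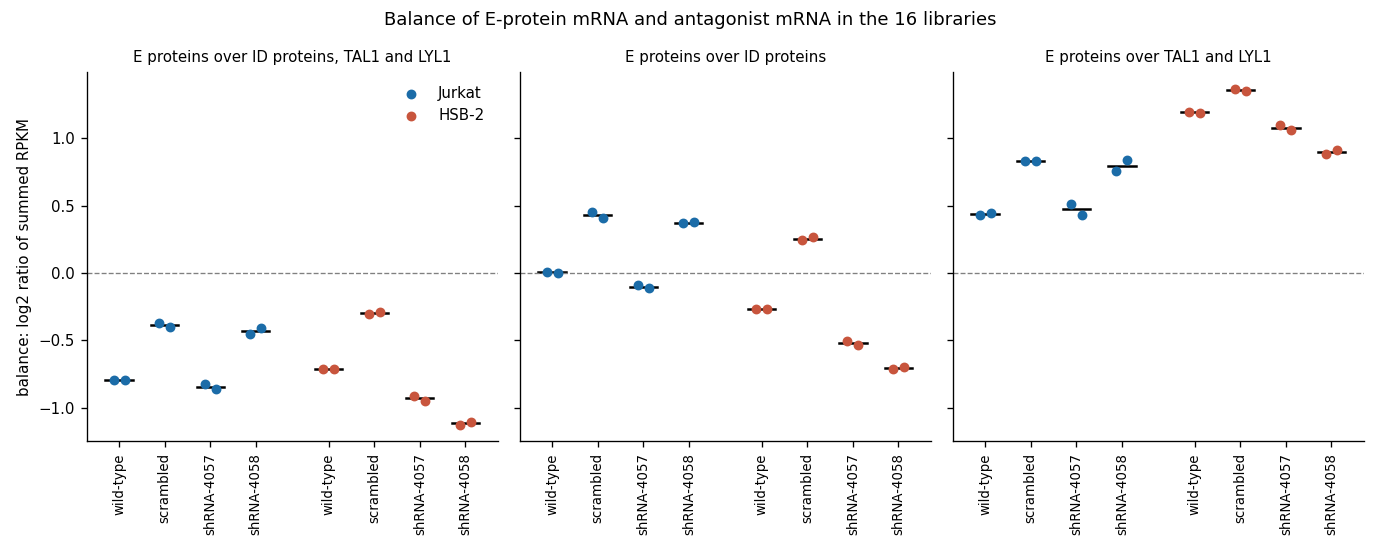
Balance of E-protein and antagonist mRNA as a log2 ratio of summed RPKM, for all antagonists (left), ID genes alone (middle) and TAL1 with LYL1 alone (right); points are libraries, lines are group means, and the dashed line marks equal sums. In each panel the scrambled libraries have the highest mean ratio of their line, and the HSB-2 shRNA-4058 libraries have the lowest of HSB-2.

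Split by antagonist, E proteins over ID genes alone stood at 0.0051 in Jurkat wild-type, 0.43 in scrambled, -0.10 with shRNA-4057 and 0.37 with shRNA-4058, and at -0.27, 0.25, -0.52 and -0.70 in the same groups of HSB-2. E proteins over TAL1 and LYL1 stood at 0.44, 0.83, 0.47 and 0.80 in Jurkat and at 1.19, 1.36, 1.08 and 0.90 in HSB-2. By RPKM the summed ID genes were therefore above the E proteins in the Jurkat shRNA-4057 and the HSB-2 wild-type and shRNA libraries, and TAL1 with LYL1 were above them in no group. In CPM neither was above the E proteins in any group. Within the E-protein sum TCF3 supplied 56.8% to 63.0% in the Jurkat groups and 74.8% to 77.6% in the HSB-2 groups, and nearly all the rest was TCF12. Within the antagonist sum ID3 supplied 47.9% to 53.5% in all 8 groups. TAL1 supplied 39.6% to 42.7% in Jurkat and 19.3% to 28.0% in HSB-2, while ID2 supplied 0.631% to 1.85% and 10.04% to 15.9%.

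**Figure D4:**
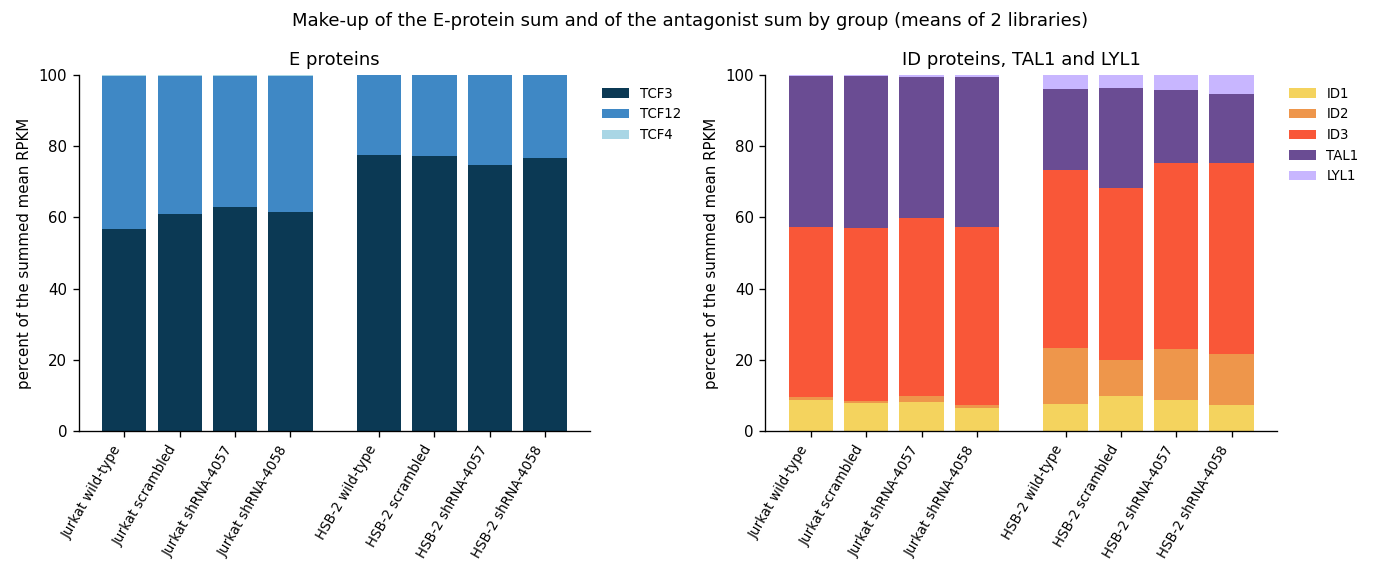
Share of each gene in the summed mean RPKM of the E-protein genes (left) and of ID1, ID2, ID3, TAL1 and LYL1 (right), in percent, as stacked bars for the 8 groups (means of 2 libraries). TCF3 makes up 56.8% of the E-protein sum in Jurkat wild-type and 77.6% in HSB-2 wild-type, and ID2 makes up at most 1.85% of the antagonist sum in Jurkat and at least 10.04% in HSB-2.

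The sums behind the balance came from different genes in the 2 lines. In wild-type cells all 10 members differed between Jurkat and HSB-2, where 68.1% of all genes did, and 7 of them were higher in Jurkat (34.6% of all genes). TAL1 was 3.12-fold and TCF12 3.04-fold higher in Jurkat (log2 differences 1.64 and 1.60, edgeR adjusted p 1.4e-22 and 1.0e-22), ID1 1.93-fold and ID3 1.62-fold. TCF3 differed least, by 0.22 (SE 0.05, edgeR adjusted p 3.3e-04). ID2 and LYL1 were the antagonists higher in HSB-2, at 8.47% and 15.1% of the HSB-2 level in Jurkat (log2 differences -3.56 and -2.72, edgeR adjusted p 3.3e-21 and 5.6e-17). With 3 counts allowed in each HSB-2 library, TCF4 was at least 489-fold higher in Jurkat wild-type. LMO1 was 130.0-fold higher in Jurkat wild-type by the ratio of mean CPM, and 156-fold by edgeR, on 13 counts in HSB-2. LMO2 was at 14.8 ± 0.780 CPM in HSB-2 wild-type against 3 counts in the Jurkat wild-type libraries together. In scrambled cells the 10 differences had the same directions, beside 71.6% of all genes called. The balance itself was lower by 0.08 in Jurkat than in HSB-2 wild-type, a difference that turned to 0.08 in the other direction with the length of the canonical transcript in place of all exons and grew to -0.26 without length correction, so the lines cannot be ordered by it. Each side is 1 cell line, and these p-values speak only of the libraries of these 2 lines.

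The effect of USP7 shRNA differed between the lines for 2 of the 8 members measurable in both, TCF12 and ID3, where 37.7% of all genes differed. Taken as the HSB-2 effect less the Jurkat effect, the difference was 0.36 for TCF12 (SE 0.09, edgeR adjusted p 0.0072) and 0.77 for ID3 (SE 0.16, adjusted p 0.0020), with the hairpins pooled in each line. The differences for the other measurable members were not called: 0.14 for TCF3, 0.42 for ID1, 0.03 for ID2, 0.25 for TAL1, 0.44 for LYL1 and -1.23 for LMO2 (edgeR adjusted p from 0.10 to 0.99). The SE for ID2 was 0.51, so a difference of the size seen for ID3 was not detectable for it. LMO2 rests on few reads in Jurkat, where the scrambled libraries had 6 counts each and only the shRNA-4057 libraries reached the minimum of 10. Matched by hairpin and without LMO2, 3 of 7 members differed between the lines with shRNA-4057 (46.7% of all genes) and 6 of 7 with shRNA-4058 (55.6%), and ID2 changed sign, at -0.61 (edgeR adjusted p 3.9e-04) and 0.98 (adjusted p 1.9e-06).

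Around the members, genes of 3 wider lists were counted. Of 24 family members and complex partners, 18 were tested. In the pooled Jurkat comparison 2 rose and 4 fell, beside 12.4% and 15.7% of all genes: the histone acetyltransferase gene CREBBP (log2 difference 0.56, SE 0.11) and SSBP3 (0.21) rose, and MYB (-0.70, SE 0.14), a T-ALL oncogene that acts with TAL1, the corepressor gene CBFA2T3 (-0.59, SE 0.14), RUNX1 (-0.35) and HDAC1 (-0.21) fell, with edgeR adjusted p from 0.0075 to 0.035. The list's median was 0.00099 against 0.02 over all genes. With wild-type as control RUNX1 alone of the 18 was called, lower, beside 8.41% of all genes. In HSB-2, 6 rose and 4 fell against scrambled cells, beside 20.3% and 17.8% of all genes. CBFA2T3 rose there (1.25, SE 0.11, edgeR adjusted p 5.3e-05), as did GATA3 (0.75, SE 0.05, adjusted p 1.4e-05), CREBBP (0.52) and LMO4 (0.28), and SSBP2 (-0.56, SE 0.06, adjusted p 1.7e-04), RUNX1 (-0.50), HDAC2 (-0.25) and MYB (-0.23) fell. The median was 0.07 against -0.02 over all genes. With wild-type as control 3 of the 18 were called higher (GATA3, CBFA2T2 and CBFA2T3) and 0 lower by edgeR, beside 25.1% of all genes in either direction, and at an unadjusted p under 0.05 SSBP2 was the 1 that was lower (-0.18, adjusted p 0.074). RUNX1, for one, was at 254 CPM in HSB-2 wild-type against 356 CPM in scrambled, 274 CPM under shRNA-4057 and 229 CPM under shRNA-4058. Against scrambled cells CBFA2T3 thus fell in 1 line and rose in the other, and its effects differed between the lines by 1.86 (SE 0.20, edgeR adjusted p 1.5e-05). Like ID2 it differed between the controls: its HSB-2 level was 56.3 ± 0.61 CPM in wild-type and 37.7 ± 0.18 CPM in scrambled.

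Of 8 ubiquitin enzymes and cofactors that act on E or ID proteins, 1 rose and 2 fell in each line in the pooled comparisons with scrambled cells, beside 28.0% of all genes called in Jurkat and 38.1% in HSB-2. With wild-type as control 0 of the 8 were called in either line by edgeR, beside 8.41% of all genes in Jurkat and 25.1% in HSB-2. At an unadjusted p under 0.05 there were 2 in Jurkat (WDR48 and CUL1) and 0 in HSB-2. WDR48, a cofactor of the ID-stabilizing deubiquitylase USP1, fell in both against scrambled cells (-0.25, SE 0.06, and -0.27, SE 0.08, edgeR adjusted p 0.019 and 0.024). CUL1, a scaffold of SCF ubiquitin ligases, rose in Jurkat (0.36, edgeR adjusted p 0.0046), and FZR1, an activator of the anaphase-promoting complex, rose in HSB-2 (0.34, adjusted p 0.0018).

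Of 14 thymocyte genes known to be activated by E proteins, 8 fell and 1 rose in the pooled Jurkat comparison (15.7% and 12.4% of all genes), with a median of -0.57 against 0.02 over all genes. By hairpin, 12 fell with shRNA-4057 and 9 with shRNA-4058, beside 27.3% and 26.7% of all genes. With wild-type as control 5 fell in the pooled comparison, 12 with shRNA-4057 and 10 with shRNA-4058. Of all genes, 1135 of 21381 were lower there in the pooled comparison, and 4895 and 5058 of 23063 with the 2 hairpins. DNTT, which adds bases at antigen-receptor joints, fell from 221 ± 2.5 CPM in scrambled to 42.2 ± 0.70 CPM under shRNA-4057 and 106 ± 0.10 CPM under shRNA-4058 (pooled log2 difference -1.54, SE 0.40, edgeR adjusted p 0.025). RAG1 (-1.66), CD4 (-1.05) and CD1B (-0.94) also fell, and SOCS3, an inhibitor of cytokine signaling, rose (0.91, edgeR adjusted p 0.019). In HSB-2 only 8 of the 14 were abundant enough for the pooled comparison. Of these CD1C (0.76), GFI1 (0.38) and NOTCH1 (0.33) rose, beside 20.3% of all genes, with edgeR adjusted p from 9.6e-04 to 0.028, and the median was 0.24. With wild-type as control GFI1 was the 1 gene of the list called higher there and CD1A the 1 called lower, beside 13.3% of all genes higher and 25.1% called in either direction. The study drew on E-protein targets in these libraries, RAG1 among them, so the list is no independent evidence of its direction.

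The genes whose profile was most like that of a member differed between members and lines. Likeness was Pearson's r of log2 CPM over the 8 libraries of a line, among genes averaging 1 CPM or more, and is a description over libraries that share groups. In HSB-2, ID3 was closest to EVL (r = 0.9993), JUP and NKG7, ID2 to P2RY1 (0.9975), LCN9 and NFKBIZ, TAL1 to PPP1R9B (0.9972), TSPAN14 and LASP1, and LYL1 to CYP4F22 (0.998), KRT7 and SEMA7A. In Jurkat, LMO1 was closest to CA8 (0.9986), KANK4 and DAAM2, ID2 to DYRK2 (0.9952), CCNL1 and SP100, TCF12 to ATP8A1 (0.9962), ETV6 and LINC01238, and TAL1 to RUNX2 (0.9912), PLEKHM3 and CHD8. No member was among the 3 closest genes of another.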

How the data were processed

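RNA-seq was made from total RNA after ribosomal depletion with a stranded kit. The authors deposited raw read counts for each gene and library, without normalization. The submitters' processing notes name CASAVA, STAR, BWA and HTSeq 0.6.1p1 and the build hg19, without their roles. The strand setting and annotation release were not given in the sources used here. The table holds Ensembl identifiers, and symbols were matched for 96.05% of 57820 genes. Positions, exon lengths and GC content came from GENCODE on GRCh37. Groups and replicate numbers came from the labels, which give no batch.

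Tests were run on these counts by edgeR 4.0.16 under R 4.3.3 (filterByExpr, TMM, quasi-likelihood F-test, Benjamini-Hochberg adjustment). Pooled comparisons used the shRNA and scrambled libraries of a line. Single hairpins and controls were compared in a fit of 16 libraries as 8 groups, and the lines through an interaction in 12 libraries. The pooled comparisons and the interaction took each library as a unit, though libraries of the same hairpin are not independent tests of USP7 loss. Replicates differed by more than counting noise in every group (chi-square per degree of freedom 5.45 to 20.2). On simulated counts the pooled Jurkat comparison recovered 110 of 200 changed genes and called 4 unchanged ones among 20683. The pooled HSB-2 comparison recovered 130 of 200, Jurkat shRNA-4057 against scrambled 125, and the difference between the lines 66. Each library was simulated on its own, so an effect shared by the libraries of a hairpin was not part of it. The members and lists were chosen with earlier results of these data known, and the minimum of 10 counts, the single-hairpin comparisons with wild-type and the canonical transcript length after seeing the data. All members are described. Of the wider lists, genes called in a pooled comparison or with both hairpins were named, up to 4 per list and direction, and some list genes are not reported here. Alternatives included DESeq2 1.42.0, other size factors and filters, an offset for GC content and length, other controls, a replicate block and leaving out each library.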

Additional observations from a re-analysis of the deposited data

Results flagged for a closer look

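LYL1 in the 4 Jurkat shRNA libraries had 1 library far from the others: shRNA-4057 replicate 2 was at 2.9997 CPM, and the other 3 lay between 2.32 and 2.39 CPM, so that its gap was 0.901 of the range. The threshold for such a gap is one that chance passes in about 1 in 20 groups of this size, and these 4 libraries are 2 of each hairpin.

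The pooled USP7 shRNA effect differed between HSB-2 and Jurkat for TCF12 by 0.36 and for ID3 by 0.77 on the log2 scale, by the edgeR interaction test across the lines. TCF12 was higher than scrambled in 4 of 4 HSB-2 shRNA libraries and lower in 4 of 4 Jurkat shRNA libraries. Both differences kept their sign and their call in every alternative run for them, with values of 0.23 to 0.48 for TCF12 and 0.50 to 1.04 for ID3. All of these used the scrambled control, and none with wild-type cells as control was run.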

How the results depend on the processing

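The count of genes called in the pooled comparisons depended most on the control and on single scrambled libraries. With hairpins as separate groups it was 11837 in Jurkat, with 7 members called, and 12077 in HSB-2. With wild-type as control it was 1798 in Jurkat, with 0 members called, and 5010 in HSB-2, with 4 members called. Leaving out each library gave 1434 to 5792 genes and 0 to 3 members in Jurkat (1873 and 1434 genes without scrambled replicates 1 and 2) and 3801 to 8454 genes in HSB-2 (3801 and 4518 without scrambled replicates 1 and 2). Leaving out libraries also gave 3713 to 4478 genes between the HSB-2 hairpins, 3 to 5 members for Jurkat shRNA-4058 and 5 to 7 members between the Jurkat controls, and the offset for GC content and length gave 8 members for Jurkat shRNA-4058. Matched by hairpin, the members that differed between the lines numbered 4 with shRNA-4057 (3 of 7 members without LMO2), where ID2 was at -0.61, and 7 with shRNA-4058, LMO2 among them at 1.89 on 2 to 6 counts in each Jurkat library compared (6 of 7 members without LMO2). The causes were not tested.

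The other changes of sign were mostly of members not called. Against wild-type in place of scrambled cells, the pooled Jurkat differences became 0.12 for TCF3, -0.40 for ID1, -0.11 for ID3 and -0.22 for TAL1, and against both controls together 0.047 for TCF3, -0.16 for ID1 and -0.049 for TAL1. With shRNA-4057 in Jurkat they became 0.074 for TCF3, -0.12 for ID1 and -0.12 for TAL1, and with shRNA-4058 0.10 for TCF3, -0.25 for ID2 and -0.32 for ID3. TCF3 in HSB-2 became -0.030 pooled, -0.028 with shRNA-4057 and -0.025 with shRNA-4058. The offset turned TCF3 to 0.052 in the pooled Jurkat comparison, 0.17 with Jurkat shRNA-4058, -0.19 in the pooled HSB-2 comparison, -0.084 and -0.29 with HSB-2 shRNA-4057 and shRNA-4058, 0.20 between the HSB-2 hairpins, 0.052 between the HSB-2 controls and -0.24 in the difference between the lines. It turned TAL1 to 0.091 with Jurkat shRNA-4058, 0.032 between the HSB-2 hairpins and -0.043 between the lines, and ID2 to -0.20 between the lines. Without 1 library, Jurkat shRNA-4058 gave -0.010 to 0.094 for ID3, -0.11 to 0.014 for TCF3, -0.081 to 0.051 for TCF4 and -0.054 to 0.015 for TAL1, the Jurkat hairpins -0.094 to 0.038 for TCF3, the HSB-2 hairpins -0.052 to 0.043 for TCF3 and -0.027 to 0.19 for ID1, the pooled Jurkat comparison -0.0071 to 0.24 for ID1, and the difference between the lines -0.19 to 0.29 for ID2.

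The balance moved with its construction. With LMO1 and LMO2 added, the change was -0.21 in Jurkat and -0.69 in HSB-2, and the wild-type difference between the lines -0.038. Without length correction HSB-2 changed by -0.56 and the lines differed by -0.26, and with canonical transcript lengths by -0.77 and 0.078. The sign of the ratio itself also turned without length correction, to E proteins above antagonists in every group. Without 1 library the values were -0.33 to -0.18 in Jurkat, -0.76 to -0.69 in HSB-2 and -0.084 to -0.080 between the lines, and without TCF4 the lines differed by -0.088.

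With the replicate number as a block TCF12 was not called in the pooled HSB-2 comparison (0.21, edgeR adjusted p 0.060), and 4156 genes in Jurkat and 6691 in HSB-2 were called. Same-numbered libraries did not deviate together (r -0.0457 to 0.0536 in Jurkat and -0.0281 to 0.0091 in HSB-2), so the numbers do not pair them.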
